A study of Dugesia japonica with 4 samples.

Results

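Solute carriers (Slc proteins) are membrane proteins that move sugars, amino acids, ions, metals, vitamins and metabolites across the plasma membrane or the membranes of organelles. Many are driven by the sodium, potassium or proton gradients that ATP-driven pumps maintain, while others let their substrate run down its own gradient. In a planarian head they feed neurons and muscle, load synaptic vesicles, balance cell volume and pH, and carry nutrients out of the gut branches that reach into the head. They are grouped into numbered families by sequence and substrate. The member numbers used here come from the planarian protein entries to which the authors matched their transcripts, and are not read as the vertebrate members of the same number.

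Solute carriers were taken by protein name: names starting with Slc and a digit, and names containing solute carrier, sodium exchanger, cotransporter, symporter, or glucose, amino acid, zinc or monocarboxylate transporter. This gave 148 of the 15850 assembled transcript features, of which 7971 had a protein name. They fell into 37 Slc families, with 3 features that carried a carrier name but no family number. In 140 of the 148 the matched protein entry was from the planarian Schmidtea mediterranea, so the identity of the Dugesia japonica transcripts rests on likeness to that species.

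The RNA came from amputated heads of Dugesia japonica, a freshwater flatworm that regrows a lost head. BaCl2 heads were from worms kept whole in 1 mM BaCl2 at 10 °C for 35 days, by which time they had grown new heads that tolerate barium. Control heads were from wild type worms, for which the labels give no exposure, no regrowth and no culture temperature. Barium exposure, head regrowth and any difference in culture temperature or time therefore cannot be told apart. The design text also names worms starved for 35 days and 3 replicates of every treatment, which are not analysed here, and gives no feeding state for the heads in these 4 libraries. Each group has 2 libraries, called biological replicates in the labels, and each library is a pool of heads from 25 worms. The series concerns how planarians adapt to an electrochemical perturbation, barium ions being blockers of potassium channels.

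The BaCl2 libraries held 3395482 and 6875650 recovered fragments (sequenced cDNA fragments, worked back from the deposited values) and the control libraries 5901128 and 8304630. Slc features took 3843 and 4057 CPM (counts of fragments scaled to the same library total) in BaCl2 heads, against 3640 and 3863 in control heads, and these ranges overlap. Marker names were searched for the head label, but the neuron names found do not single out heads. Choline O-acetyltransferase, the enzyme that makes the transmitter acetylcholine, had 381 fragments in BaCl2 heads and 394 in control heads. Synaptotagmin had 226 and 177, complexin 1313 and 806, and neuropeptides 2356 and 2043. These fragments are not scaled to depth, which differs between the libraries, so they show presence only. For the eye the names searched, opsin and tyrosinase, gave no eye gene, since opsin matched only receptors named after the rhodopsin superfamily. No feature was found under the names synapsin, SNAP-25 or syntaxin-1. In whole heads, fewer cells of a type and less RNA per cell cannot be told apart.

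The first question was which solute carriers differed between the groups. Slc2a-1, of the facilitative glucose transporter family, was the carrier that passed the test, and it was higher in BaCl2 heads. The test was limma on log2(FPKM + 1), where FPKM is the fragment number per unit of feature length and of library size, with Benjamini-Hochberg adjustment over all 7983 features that had at least 100 fragments and a threshold of 0.05. Of the 148 Slc features 75 had that many fragments and 73 did not. The count of 1 in 75 (1.33%) stands beside 1.42% of all features tested, 0.2% higher and 1.22% lower. At an unadjusted p under 0.05 it was 15 of 75, 6 higher and 9 lower, beside 18.8% of all features, 6.98% higher and 11.8% lower. Fits with limma voom, which model the fragments themselves, called 3 of the 75 with library totals (Slc2a-1, Slc1a-5 and Slc39a-8; 1.32% of all features) and 2 with the deposited scaling (Slc2a-1 and Slc39a-8; 2.44%). Where limma took in every feature that averaged at least 1 FPKM, it called 0 of 147 Slc features, beside 0.128% of all, with 16 at an unadjusted p under 0.05, beside 11.3%. Most of these Slc shares are near those of the whole table. Voom with library totals gave 4.0% beside 1.32%, and the higher calls of the main fit were 1.33% beside 0.2%. These gaps rest on 3 features and on 1.

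The single libraries gave a similar account. Both BaCl2 libraries were at least 2-fold apart from both control libraries, on log2(FPKM + 1), for 1 Slc feature that was higher, Slc2a-1, and for 2 that were lower, the zinc transporter Slc39a-8 and the mitochondrial carrier Slc25a-1. The shares over all features tested were 0.789% higher and 2.97% lower. In 22 of the 75 both BaCl2 libraries lay above both control libraries, in 19 below, and in 34 the groups overlapped. Over all features tested 19.1% lay above and 36.4% below without overlap. The median log2 fold change of the 75, BaCl2 over control, was 0.06, with 42 features (56.0%) above 0, beside a median of -0.15 and 39.1% above 0 over all features.

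That centre depends on the scaling of the libraries and on the depth of the features. Scaling to library totals moved the median of all features to 0.055 and that of the Slc features to 0.25, and median-ratio rescaling moved them to 0.01 and 0.21, so the Slc median stayed 0.20 to 0.21 above the other under these 3 scalings. Among the 44 Slc features with at least 300 fragments, however, the median was -0.19, beside -0.21 for all features of that depth. Log2 fold changes below are on the deposited scaling.

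**Figure D1:**
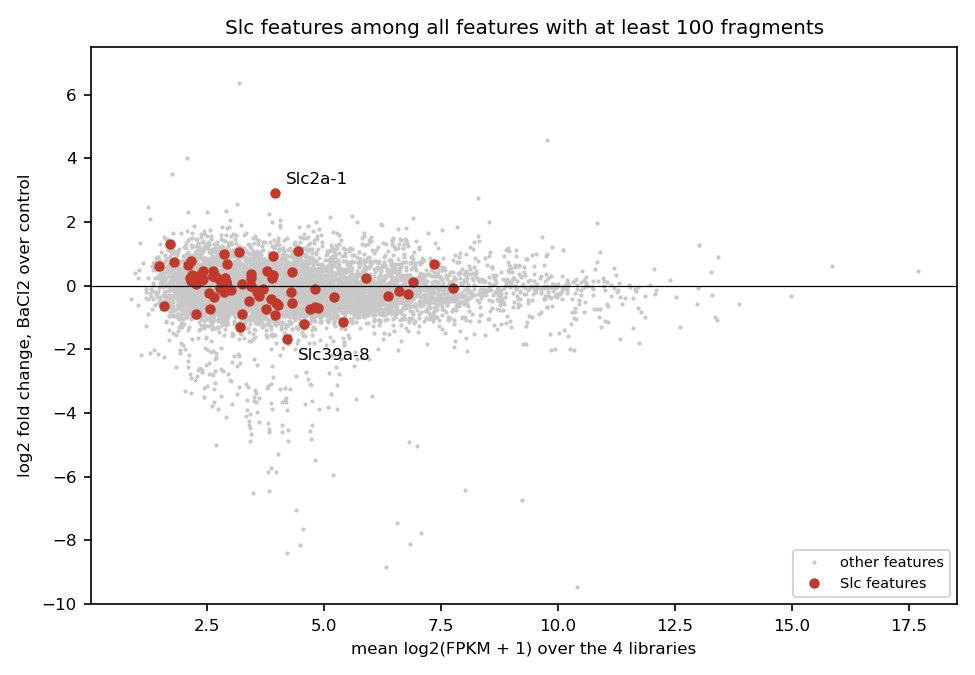
Log2 fold change of each feature with at least 100 fragments (vertical axis, BaCl2 over control) against its mean level, log2(FPKM + 1) over the 4 libraries (horizontal axis), with 75 Slc features in red and all others in grey. Slc2a-1, at 2.92, and Slc39a-8, at -1.68, lie at the upper and lower edge of the Slc features, whose median is 0.06.

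Of the sugar carriers, 1 of the 7 features with at least 100 fragments passed the test. Slc2a-1 (TCONS_00003196, a feature of 322 nt) had 36.2 and 48.0 FPKM in BaCl2 heads, against 3.29 and 6.41 FPKM in control heads. These values rest on 76 and 170 fragments in BaCl2 heads and on 9 and 27 in control heads, and both BaCl2 libraries were above both control libraries by at least 5.65-fold. The mean was 42.1 ± 8.37 FPKM in BaCl2 heads and 4.85 ± 2.21 FPKM in control heads (SD, n = 2 each), which is 8.68-fold. The log2 fold change was 2.92 (SE 0.34, limma adjusted p = 0.018), from 2.53 to 3.32 with each library left out in turn, and always past the threshold there (adjusted p at most 0.0307). Where features with fewer fragments were tested too, Slc2a-1 missed the threshold, with an adjusted p of 0.134 from 30 fragments and of 0.230 from a mean of 1 FPKM. It also missed it when libraries were scaled to their totals (adjusted p = 0.075). Past the threshold it was in 11 of 15 alternatives, among them both voom fits (adjusted p = 0.0356 with library totals and 0.0193 with the deposited scaling).

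A second feature of the same name lay on the same contig and had 1 and 16 fragments in BaCl2 heads, against 0 and 2 in control heads. The length-weighted mean FPKM of both had a log2 fold change of 2.94 (SE 0.36, adjusted p = 0.0192). The other glucose transporter on 2 features with at least 100 fragments, Slc2a-7, had log2 fold changes of 0.04 and 0.24 and did not pass. The Slc2 family as a whole, 6 features, took 48.6 and 40.9 CPM in BaCl2 heads and 14.4 and 17.9 CPM in control heads. Of these totals the Slc2a-1 contig held 22.7 and 27.1 CPM in BaCl2 heads and 1.53 and 3.49 CPM in control heads. The Slc2a-7 contig held 22.7 and 10.9 CPM in BaCl2 heads and 11.9 and 11.4 CPM in control heads, which overlap. The family total is therefore not read as a rise of its other members.

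Other carriers couple sugar to sodium or work inside the cell. Slc5a-2, of the sodium-coupled glucose transporter family, had 7.05 and 5.41 FPKM in BaCl2 heads, against 5.73 and 4.13 FPKM in control heads, which overlap (log2 fold change 0.29, adjusted p = 0.588). Slc37a-2, of the family that exchanges glucose 6-phosphate for phosphate at the endoplasmic reticulum, had 10.1 and 13.4 FPKM in BaCl2 heads, against 16.98 and 15.2 FPKM in control heads. Its groups did not overlap, but the difference did not pass (log2 fold change -0.43, adjusted p = 0.404). In the same family Slc37a-3 had 3.12 and 2.07 FPKM in BaCl2 heads, against 5.07 and 6.03 FPKM in control heads, for the feature TCONS_00008692. Its groups did not overlap and the difference did not pass (log2 fold change -0.88, SE 0.28, adjusted p = 0.188), while the other Slc37a-3 feature, TCONS_00008693, had a log2 fold change of 0.11.

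**Figure D2:**
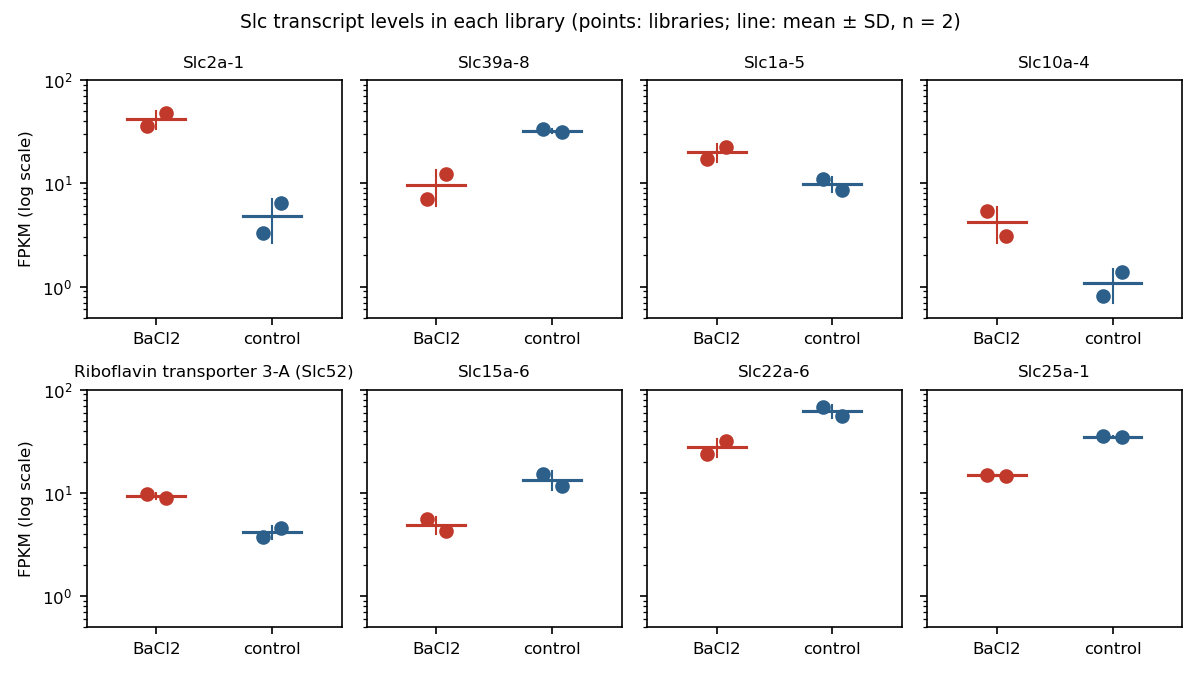
FPKM (log axis) of 8 Slc features in each library, BaCl2 left and control right, with the mean as a horizontal line and the SD as a vertical one (n = 2 each). In all 8 the groups do not overlap, but the 8 are a selection and do not show how common this is. Of the 75 Slc features with at least 100 fragments, 34 had groups that overlapped. Slc2a-1 passed the test across all features, with 42.1 FPKM in BaCl2 heads and 4.85 FPKM in control heads.

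Among carriers of amino acids and peptides 9 of the 11 features with at least 100 fragments lay above 0, also under each of the 3 other scalings tried, with a median log2 fold change of 0.43, and 0 passed the test (2 were at an unadjusted p under 0.05, and voom called 1 with library totals and 0 with the deposited scaling). Slc1a-5, of the family of glutamate and neutral amino acid transporters, had 17.3 and 22.7 FPKM in BaCl2 heads, against 11.0 and 8.68 FPKM in control heads. It rested on 1919 fragments, its groups did not overlap, and its log2 fold change was 0.95 (SE 0.27, adjusted p = 0.158). It passed in the voom fit with library totals (log2 fold change 1.25, adjusted p = 0.0321) and not in the one with the deposited scaling (1.01, adjusted p = 0.0727). The other member of this family, Slc1a-3, had a log2 fold change of 1.08 (adjusted p = 0.340), with 28.6 and 32.5 FPKM in BaCl2 heads and 7.01 and 26.8 FPKM in control heads. With each library left out in turn its log2 fold change ran from 0.18 to 1.97, with adjusted p from 0.0111 to 0.989. It passed without control replicate 2 (log2 fold change 1.97).

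Slc3a-1, of the family of heavy chains that bring amino acid carriers of family 7 to the cell surface, had 21.1 and 23.0 FPKM in BaCl2 heads, against 16.3 and 15.9 FPKM in control heads (log2 fold change 0.43, adjusted p = 0.374). Slc7a-7, of the family that holds the light chains and the cationic amino acid transporters, had 4.89 and 5.66 FPKM in BaCl2 heads, against 4.20 and 3.05 FPKM in control heads (log2 fold change 0.45, adjusted p = 0.400). For both the groups did not overlap. Of the 4 features of family 7 with enough fragments 3 lay above 0, under all scalings tried. Slc6a-5, of the family of sodium- and chloride-coupled neurotransmitter and amino acid transporters, had 8.53 and 4.60 FPKM in BaCl2 heads, against 7.73 and 3.67 FPKM in control heads. Slc36a-2, of the proton-coupled amino acid transporters, had 7.70 and 2.86 FPKM in BaCl2 heads, against 5.02 and 3.07 FPKM in control heads. In both the replicates of a group differed by more than the groups did.

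The peptide transporter Slc15a-6 was the lowest of this class. It had 5.59 and 4.25 FPKM in BaCl2 heads, against 15.4 and 11.6 FPKM in control heads, 2.74-fold higher in control heads, on 321 fragments. The log2 fold change was -1.29 (SE 0.28, adjusted p = 0.0994), and it passed only where features under 300 fragments were left out (adjusted p = 0.0329) or with a replicate block. A second feature of that name on the same contig had 7.21 and 14.4 FPKM in BaCl2 heads and 8.99 and 10.8 FPKM in control heads, which overlap. The length-weighted mean of both had a log2 fold change of -1.01 (adjusted p = 0.114).

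Metal carriers held the second feature that stood out in the single libraries. Slc39a-8, of the family that brings zinc into the cytoplasm, had 7.08 and 12.4 FPKM in BaCl2 heads, against 33.2 and 31.2 FPKM in control heads. Fragments numbered 85 and 250 in BaCl2 heads and 520 and 750 in control heads, and the mean was 3.31-fold higher in control heads. The log2 fold change of -1.68 (SE 0.32) gave an adjusted p of 0.0747 and did not pass. It did pass in both voom fits (adjusted p = 0.0365 with library totals and 0.0192 with the deposited scaling) and in 7 of 16 alternatives in all. Leaving out each library in turn gave log2 fold changes from -2.04 to -1.31.

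The other 4 features of family 39 with at least 100 fragments had log2 fold changes of 0.61 (Slc39a-10), 0.15 (Slc39a-5), -0.09 (Slc39a-13) and -0.47 (Slc39a-7), with adjusted p from 0.393 to 0.879. Family 30 moves zinc the opposite way, out of the cytoplasm. Its 4 features all lay above 0, under all scalings tried, with a median log2 fold change of 0.19 and adjusted p from 0.550 to 0.994. The one with most fragments, Slc30a-5, had 9.89 and 9.92 FPKM in BaCl2 heads, against 9.06 and 10.8 FPKM in control heads, a log2 fold change of 0.00 with a 95% interval from -0.59 to 0.60. A putative cation efflux protein/zinc transporter with no family number had 9.002 and 9.92 FPKM in BaCl2 heads, against 15.7 and 17.2 FPKM in control heads (log2 fold change -0.74, adjusted p = 0.198), without overlap.

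Copper uptake is the task of family 31. Slc31a-1 had 19.9 and 18.9 FPKM in BaCl2 heads, against 34.6 and 30.7 FPKM in control heads (log2 fold change -0.72, SE 0.25, adjusted p = 0.213), without overlap. The second copper transporter, Slc31a-3, overlapped between groups and had -0.54. Over the 12 metal carrier features 6 lay above 0 and 6 below, and 7 above under both other scalings of FPKM.

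**Figure D3:**
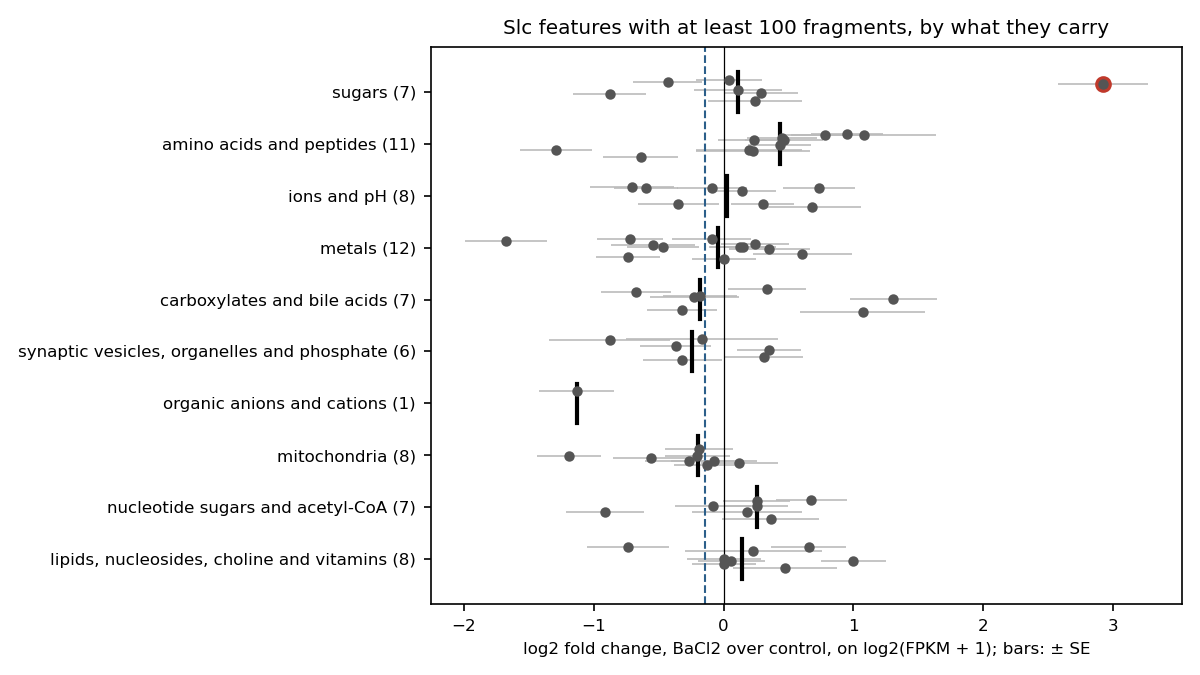
Log2 fold change (BaCl2 over control, on log2(FPKM + 1), with SE) of the 75 Slc features with at least 100 fragments, grouped by what their family carries (number of features in brackets). Black bars are group medians, the dashed line is the median of all features, -0.15, and red marks Slc2a-1, which passed the test; amino acid and peptide carriers have the highest median, 0.43.

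Ion exchangers and carriers that regulate pH and volume were spread around 0, 4 of 8 features above it (5 under the other scalings) and 0 past the threshold (1 at an unadjusted p under 0.05, and 0 by either voom fit). Slc8a-1, of the sodium/calcium exchangers that clear calcium from excitable cells, had 4.09 and 2.96 FPKM in BaCl2 heads, against 1.67 and 1.72 FPKM in control heads. Its log2 fold change was 0.74 (SE 0.28, adjusted p = 0.233). This is 1 of 5 features of that name on a single contig, and in all 5 the mean level was higher in BaCl2 heads. Their length-weighted mean was 4.48 ± 0.816 FPKM in BaCl2 heads and 1.75 ± 0.00344 FPKM in control heads (SD, n = 2 each). Its log2 fold change was 0.99 (SE 0.27, limma adjusted p = 0.139), which did not pass either.

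The sodium/proton exchanger Slc9a-5 had 11.1 and 13.2 FPKM in BaCl2 heads, against 18.2 and 19.5 FPKM in control heads, without overlap (log2 fold change -0.60, adjusted p = 0.268). Slc12a-1, of the cation-chloride cotransporters that set cell volume and internal chloride, is on 2 features. The one with more fragments had 23.0 and 29.5 FPKM in BaCl2 heads, against 26.7 and 28.9 FPKM in control heads. These overlap, and the 95% interval of the log2 fold change ran from -0.74 to 0.55. The other had 3.33 and 6.04 FPKM in BaCl2 heads, against 6.09 and 5.99 FPKM in control heads, which also overlap (log2 fold change -0.35, adjusted p = 0.558). Slc42a-2, of the Rh family of ammonia carriers, had 17.7 and 27.4 FPKM in BaCl2 heads, against 31.4 and 42.3 FPKM in control heads (log2 fold change -0.70, adjusted p = 0.300). Slc26a-8, of the anion exchangers, had 284 and 152 FPKM in BaCl2 heads, against 128 and 130 FPKM in control heads (log2 fold change 0.68, adjusted p = 0.360). That feature is 193 nt long, so its high FPKM rests on 439 fragments in all 4 libraries, and its BaCl2 libraries differed more from each other than the lower of them from the control libraries.

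Carriers of carboxylates and bile acids held 1 of the larger upward values. Slc10a-4, of the sodium-coupled bile acid transporter family, had 5.38 and 3.12 FPKM in BaCl2 heads, against 0.806 and 1.37 FPKM in control heads. Both BaCl2 libraries were above both control libraries, but only 41 and 40 fragments in BaCl2 heads and 8 and 21 in control heads lie behind them. The log2 fold change was 1.31 (SE 0.33, adjusted p = 0.129). Slc13a-3, of the sodium-coupled carboxylate and sulfate carriers, had 10.9 and 9.14 FPKM in BaCl2 heads, against 14.8 and 10.9 FPKM in control heads (log2 fold change -0.32, adjusted p = 0.538). Slc16a-1, of the monocarboxylate carriers that move lactate and pyruvate, had 19.6 and 22.9 FPKM in BaCl2 heads, against 38.4 and 30.7 FPKM in control heads (log2 fold change -0.67, adjusted p = 0.253), without overlap. The other 4 features of family 16 had log2 fold changes from -0.22 to 1.07.

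The largest carrier families by fragments act inside cells. Family 25, the carriers of the inner mitochondrial membrane, took 32.9% and 39.0% of the Slc fragments in BaCl2 heads and 36.4% and 35.4% in control heads. Slc25a-27 alone took 20.1% and 24.3% in BaCl2 heads and 21.1% in each control library. It was the most abundant Slc feature, with 171 and 261 FPKM in BaCl2 heads, against 226 and 220 FPKM in control heads, so both control values lie between the BaCl2 values (log2 fold change -0.07, 95% interval -0.87 to 0.72). Slc25a-23 had 77.8 and 130 FPKM in BaCl2 heads, against 126 and 116 FPKM in control heads, and Slc25a-19 had 108 and 141 FPKM in BaCl2 heads, against 117 and 109 FPKM in control heads. Both overlap between groups.

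Of the 8 features of family 25 with at least 100 fragments 7 lay below 0 (median -0.20), but 5 did so after median-ratio rescaling and 4 when scaled to library totals, and 0 passed (1 was at an unadjusted p under 0.05, and 0 by either voom fit). That 1 was a short feature of Slc25a-1 (241 nt), with 15.0 and 14.6 FPKM in BaCl2 heads, against 35.3 and 34.7 FPKM in control heads. It was 2.37-fold higher in control heads on 145 fragments in all, with a log2 fold change of -1.19 (SE 0.25, adjusted p = 0.0916). The other feature of Slc25a-1 on the same contig had 7 and 6 fragments in BaCl2 heads and 2 and 10 in control heads, and overlapped. Their length-weighted mean had -0.86 (adjusted p = 0.146).

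Vesicular and organellar carriers of families 17 and 18 load transmitters and other anions into vesicles and lysosomes. A feature named solute carrier family 17 member 9, after a protein known in mammals as the vesicular nucleotide transporter, had 60.7 and 86.8 FPKM in BaCl2 heads, against 91.1 and 90.3 FPKM in control heads (log2 fold change -0.32, adjusted p = 0.582). It held 11161 fragments, the second highest number among Slc features. Slc18a-5, of the vesicular monoamine and acetylcholine carriers, had 51.2 and 161 FPKM in BaCl2 heads, against 140 and 75.0 FPKM in control heads. At 173 nt and 205 fragments its replicates differed more than its groups. Family 17 as a whole took 634 and 737 CPM in BaCl2 heads and 706 and 754 CPM in control heads, which overlap.

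Slc22a-6, of the organic ion transporters, was 1 of the lower features, with 24.0 and 32.0 FPKM in BaCl2 heads, against 68.8 and 55.8 FPKM in control heads. The log2 fold change was -1.13 (SE 0.29, adjusted p = 0.129). It was the only feature of families 21 and 22 with at least 100 fragments.

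Family 35 moves nucleotide sugars into the Golgi and endoplasmic reticulum for glycosylation. Slc35c-1 had 8.13 and 13.1 FPKM in BaCl2 heads, against 21.6 and 19.1 FPKM in control heads, without overlap (log2 fold change -0.91, SE 0.30, adjusted p = 0.197). The other 5 features of the family lay above 0, from 0.18 to 0.68, under all scalings tried. Slc33a-1, of the acetyl-CoA transporters, had 4.44 and 7.20 FPKM in BaCl2 heads, against 5.90 and 6.22 FPKM in control heads, which overlap.

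Vitamin, lipid and nucleoside carriers held the riboflavin transporter, a member of family 52 that takes up vitamin B2. It had 9.82 and 8.90 FPKM in BaCl2 heads, against 3.77 and 4.63 FPKM in control heads, 2.23-fold higher in BaCl2 heads on 143 fragments in all. Its log2 fold change was 1.00 (SE 0.25, adjusted p = 0.128). Slc44a-1, of the choline-like transporters, had 4.72 and 4.001 FPKM in BaCl2 heads, against 1.90 and 2.97 FPKM in control heads (log2 fold change 0.66, adjusted p = 0.283). Neither group pair overlapped.

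The nucleoside carriers gave opposite signs. Slc28a-1, of the sodium-coupled family, had 4.80 and 2.59 FPKM in BaCl2 heads, against 6.89 and 6.31 FPKM in control heads (log2 fold change -0.74, adjusted p = 0.273). Slc29a-2, of the family that needs no gradient, had 10.0 and 23.2 FPKM in BaCl2 heads, against 11.3 and 10.2 FPKM in control heads, which overlap. Slc27a-1, of the fatty acid transport proteins, and Slc46a-1, of the folate and heme carriers, both had log2 fold changes of 0.00. Slc27a-1 had 8.11 and 5.39 FPKM in BaCl2 heads, against 6.11 and 7.18 FPKM in control heads. Slc46a-1 had 9.01 and 10.7 FPKM in BaCl2 heads, against 9.64 and 9.98 FPKM in control heads.

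The precision of these values is limited. The median SE of the 75 log2 fold changes was 0.29. Each feature had 2 residual degrees of freedom of its own, and limma also drew on the spread of all features tested. The SEs and intervals therefore do not rest on the libraries of 1 feature alone. In 26 of the 75 the 95% interval lay within 1 of 0 on the log2 scale, so that a 2-fold difference either way falls outside it. In the other 49 the interval reaches a 2-fold difference. The BaCl2 libraries differed from each other by a median of 0.37 on log2(FPKM + 1) over these features, and the control libraries by 0.20.

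Features that share a contig may be pieces of 1 transcript. The 148 lie on 108 contigs, and 32 contigs carry more than 1, 72 features in all, always with 1 name per contig. The mean of log2(FPKM + 1) was higher in BaCl2 heads for every feature of 17 of these contigs, lower for every feature of 4, and on both sides for 11. The split over all contigs with more than 1 feature is not given, so this one is not read as particular to Slc features. Pieces of 1 transcript would also not be independent of each other. Joining the features of each contig, with fragments summed and FPKM averaged by length, was a choice made after seeing the data. It left 74 Slc contigs with at least 100 fragments. Slc2a-1 was again the 1 that passed (1.35%, beside 1.67% of 7464 contigs tested). Slc39a-8 followed with an adjusted p of 0.06.

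**Figure D4:**
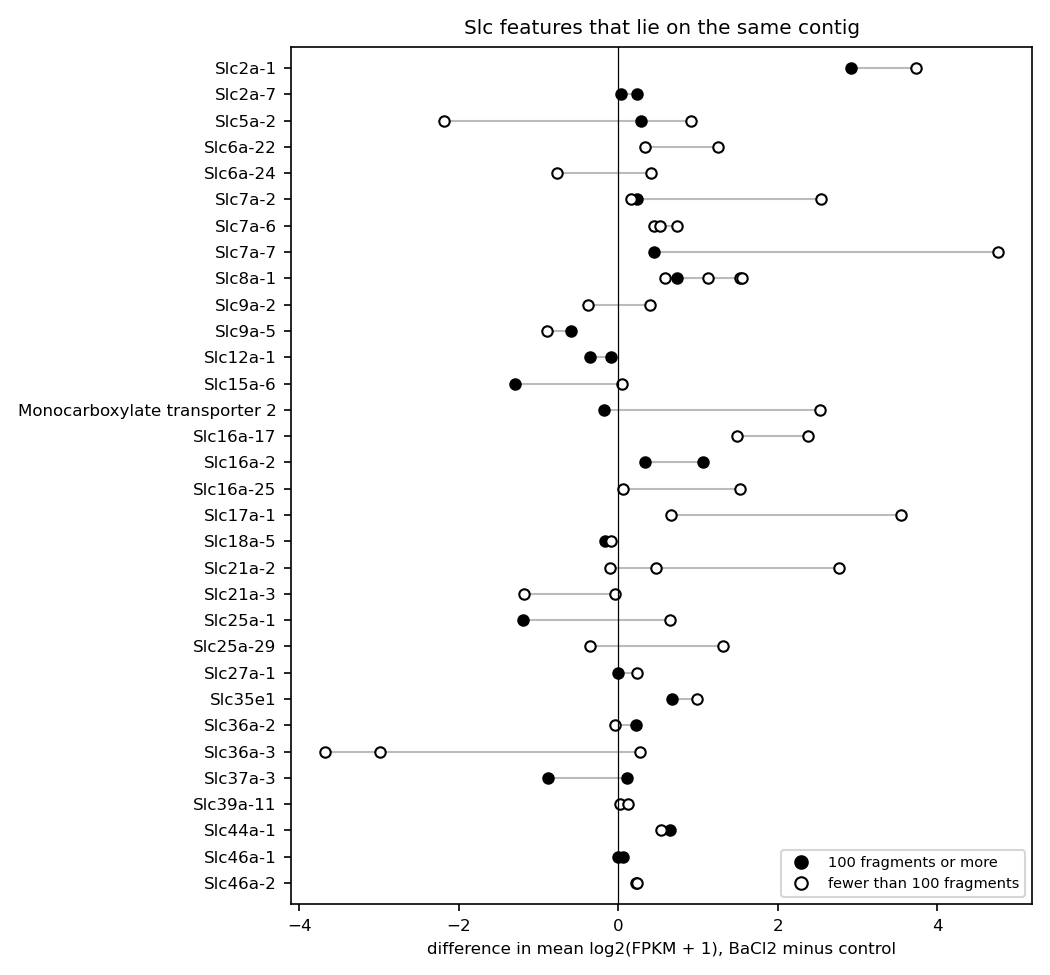
Difference in mean log2(FPKM + 1), BaCl2 minus control, of each Slc feature on the 32 contigs that carry more than 1, with a line joining the features of a contig; filled points have at least 100 fragments. All 5 Slc8a-1 features lie to the right of 0, while the Slc15a-6 and Slc25a-1 features lie on both sides.

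The 73 Slc features with fewer than 100 fragments had a median length of 235 nt, against 745 nt for the 75. In 19 both BaCl2 libraries lay above both control libraries, in 9 below, and in 45 the groups overlapped, beside 24.0% above and 17.9% below over all 7867 features of that depth. At least 2-fold in every pair of libraries were 5 higher and 4 lower, beside 6.9% and 6.16%. A group at 0 in both libraries was seen for 3 of them, named here because of those values. The share of all features of that depth with such a group is not given, so these 3 are not read as particular to Slc features. Slc17a-1 (TCONS_00006778), named as a vesicular glutamate transporter, had 4 and 10 fragments in BaCl2 heads and 0 in both control libraries, and another feature on its contig had 5 and 49 fragments in BaCl2 heads and 7 and 19 in control heads. Slc26a-4 had 0 in both BaCl2 libraries and 2 and 11 fragments in control heads. Slc36a-3 (TCONS_00010234) had 0 in both BaCl2 libraries and 0 and 10 in control heads. These features hold 14, 13 and 10 fragments in all, and 0 fragments in a library allow up to 3.

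The authors' deposited table gave a q-value under 0.05 to 3 of the 148 Slc features, 2.03%, beside 3.43% of all features. In the authors' deposited table these were Slc39a-8 (q = 0.00428), Slc2a-1 (q = 0.0299) and the short Slc17a-1 feature with 14 fragments (q = 0.0295).

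Genes that set the gradients for these carriers, or handle what they carry, were read from lists of protein names, after names that matched a search word by its letters only had been left out with the values known. Of their 35 features 1 passed, a ferritin, with 6 others at an unadjusted p under 0.05 and 0 others by either voom fit. For the sodium/potassium ATPase, the pump behind sodium-coupled transport, 2 beta subunit features had log2 fold changes of 0.60 (adjusted p = 0.255) and 0.15 (0.838). Of 7 features of the V-type proton ATPase, which acidifies vesicles, 4 lay above 0 (5 under the other scalings); subunit F had -0.16, the 44 kD C subunit 0.07 and the SFD subunit -0.25. Of the ABC transporters, which burn ATP themselves, multidrug resistance-associated protein 4 had 0.50 and subfamily B member 7 had -0.04 (both lay above 0 under the other scalings). Carbonic anhydrase, which makes bicarbonate, had 3 of 4 features above 0 (4 of 4 under library totals), and the 3 with most fragments had -0.21, 0.23 and 0.60. Both aquaporin features with enough fragments lay above 0, at 0.68 (adjusted p = 0.298) and 1.58 (adjusted p = 0.128). The mitochondrial pyruvate carrier, which hands pyruvate to the citric acid cycle, had 0.03.

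Glycolytic enzymes, which use the sugar that glucose transporters bring in, had 2 of 11 features above 0 with a median log2 fold change of -0.36. Under library totals 3 of the 11 were above 0. Of the features with most fragments, a fructose-bisphosphate aldolase had -0.48, a pyruvate kinase 0.18 and a putative phosphoglycerate mutase -1.07 (limma adjusted p = 0.164). Another pyruvate kinase feature, TCONS_00006008, had -0.54 (adjusted p = 0.404), so the enzyme had both signs. The 11 features ran from -1.69 (an enolase, adjusted p = 0.0696) to 0.45 (a phosphoglycerate mutase, adjusted p = 0.547). Of 5 ferritins, which store iron, and 1 transferrin, which carries it, 1 was lower, a ferritin (TCONS_00005540) with a log2 fold change of -8.84 (SE 0.50, adjusted p = 0.000767). The other ferritins with most fragments had 0.02 and -0.07.

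The part of the cell type markers in the Slc values was not tested. Neuron markers took 412 and 418 CPM in BaCl2 heads and 197 and 272 CPM in control heads, with 10 of 11 features above 0, also under the other scalings, and 0 past the threshold (3 at an unadjusted p under 0.05, 1 by voom with library totals). Muscle markers took 15824 and 16825 CPM in BaCl2 heads and 10400 and 9660.2 CPM in control heads, with 17 of 21 features above 0 and 0 past the threshold (5 at an unadjusted p under 0.05, 3 by voom with library totals and 1 with the deposited scaling). The 4 below 0 were troponin C and all 3 features of myosin heavy chain, with log2 fold changes from -0.95 to -0.30. Intestine markers took 2956 and 2965 CPM in BaCl2 heads and 2505 and 2504 CPM in control heads, with 7 of 15 features above 0, 9 to 10 under the other scalings, and 0 past the threshold (1 at an unadjusted p under 0.05, 0 by either voom fit).

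Markers of protonephridia, the excretory tubules, took 131 and 111 CPM in BaCl2 heads and 91.3 and 95.1 CPM in control heads, with 3 of 4 features above 0, all of the 4 being carbonic anhydrases. Markers of cilia took 1006 and 1809 CPM in BaCl2 heads and 2093 and 2622 CPM in control heads; all 6 features lay below 0, and 2 passed as lower, a Tektin-3 feature (log2 fold change -4.89) and a radial spoke head protein 3 homolog (-2.76). Voom with the deposited scaling called 1 of the 6 and voom with library totals called 0. Markers of neoblasts, the dividing stem cells of planarians, took 1188 and 1009 CPM in BaCl2 heads and 1428 and 1320 CPM in control heads, with 7 of 7 features below 0, 4 of 7 under the other scalings, and 0 past the threshold (2 at an unadjusted p under 0.05, 1 by voom with the deposited scaling). Of the marker names searched, vitellogenin, apolipoprotein, Hnf4, rootletin, megalin and nephrin gave no feature.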

How the data were processed

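RNA from 2 BaCl2 and 2 control pools of heads was sequenced as poly(A) TruSeq libraries, per the labels' protocols. The authors deposited 3 tables of FPKM per assembled feature, per the file headers, 1 with replicates pooled and 2 with 1 library of each group. Log2 fold change, p-value and q-value columns are the authors' own comparison, per the file headers. Cufflinks 2.2.1, Cuffdiff, TopHat2 2.0.13 and Bowtie are named, without roles, by the submitters' processing notes. Loci are contigs, of a build not given in the sources used here. No sequences of the features were used here.

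The pooled value was a weighted sum of the replicate values, which put the 4 libraries on 1 scale. FPKM was turned back into fragments by modelling fragment lengths from 28 to 440 nt (mean 200 nt, SD 80 nt), and 99.8% to 99.9% of values under 50 fragments came out whole within 0.1. The library values of 3 Slc features absent from a replicate table were derived from the pooled values. A fragment is worth 11.1 to 22.3 FPKM in a feature of 100 nt and 0.0363 to 0.0729 FPKM in one of 1000 nt, so short features are imprecise; fragments are not independent molecules, and floors cover counting error only.

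As FPKM is no count, limma 3.58.1 (R 4.3.3, eBayes with a mean trend, two-sided, pseudocount 1, no block) was run on all features with at least 100 fragments. Fold changes on log2(FPKM + 1) understate those of low features. Fits were also run on simulated data, but no outcome is given here, so this is no evidence of their accuracy. Alternatives were pseudocounts 0.1 and 5, other filters, other scalings, limma voom on fragments, a replicate block, each library left out, and contig values. For contig values, fragments were summed and FPKM was averaged by length.

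The members, lists, filter and tests were chosen with earlier results of these data known, and the grouping of families by cargo was made after values were seen. From the lists searched by protein name, 33 of 178 matches were left out after values were seen, since their names held the letters of a search word but named another protein (none of them was past the threshold). Features named are those past the threshold here or in a voom fit, those 2-fold apart in all 4 library pairs, the one with most fragments in each family (at least 100), and the 5 highest by FPKM. Other values of same-family or same-contig features are given beside them.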

Additional observations from a re-analysis of the deposited data

How the results depend on the processing

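Direction and side of the threshold were the same in 509 of 566 values of the 36 named features under alternatives; 21 newly passed, 4 (all Slc2a-1) no longer passed, 32 changed sign without a call, in 12 features, and 0 calls reversed. The count of 1 Slc feature past the threshold became 2 with a pseudocount of 5, 2 with at least 300 fragments (Slc39a-8 and Slc15a-6; Slc2a-1 has 282 fragments and was not fitted), 3 with voom on library totals and 2 with voom on the deposited scaling. It became 0 with a mean of at least 1 FPKM and 0 with at least 30 fragments. With no filter, and when scaled to library totals, it also became 0. At an unadjusted p under 0.05 these 4 settings had 16 of 147, 21 of 115, 16 of 148 and 14 of 75 Slc features. Over all features the numbers, in the same order, were 1770 of 15683, 1764 of 12413, 1772 of 15850 and 1436 of 7983. Leaving out 1 library gave 1 to 7 Slc features: 1 without control replicate 1, 5 without control replicate 2, 1 without BaCl2 replicate 1 and 7 without BaCl2 replicate 2. In these fits the lone library is assumed to vary like the other group. For Slc2a-1 they gave log2 fold changes from 2.53 to 3.32.

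Over all features the count of 113 became 53 and 177 with pseudocounts of 0.1 and 5, 20 with a mean of at least 1 FPKM, 33 and 172 with at least 30 and 300 fragments, 20 with no filter, 38 with median-ratio rescaling, 25 when scaled to library totals, 195 with voom on the deposited scaling, and 225 to 957 with 1 library left out. The median Slc log2 fold change was -0.19 with at least 300 fragments. The Slc count at least 2-fold apart in all pairs was 5 with a pseudocount of 0.1, against 3 with a pseudocount of 1. No share over all features is given at 0.1, so the 5 is not read as a result about Slc features. The cause of these shifts was not tested. Contig values were chosen after seeing the data and gave 1 Slc call and 125 in all.

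Nothing in the labels says that a replicate number marks a shared day or culture. Same-numbered libraries deviated from their group means with a correlation of 0.14 across 7983 features, with only 2 pairs. With a replicate block 11 Slc features and 949 in all passed. With 2 libraries per group, p-values rest on the spread between these pools and, through eBayes, on a trend of that spread over all features tested. Features near 100 fragments are limited by depth.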
